A study of Mus musculus with 2 samples.

Results

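Prostaglandin synthesis and receptor genes were followed across the cells of mouse kidney glomeruli. The set held 8 genes, taken by symbol from the 31058 entries of the feature list. It covered both cyclooxygenases (Ptgs1, Ptgs2), the synthases of prostacyclin, prostaglandin E2 and prostaglandin D2 (Ptgis, Ptges, Ptgds) and 3 receptors for prostaglandin E2 (Ptger1, Ptger3, Ptger4). All 8 genes had UMIs in both libraries. Dissociated glomerular cells of 2 healthy C57Bl/6 mice, 1 labelled female and 1 labelled male, gave 1 droplet library each, in which unique molecular identifiers (UMIs) count transcript 3' ends. Both mice had the genotype Pax2.rtTA;TetO.Cre;R26.Confetti, in which doxycycline lets cells that express Pax2 recombine a fluorescent reporter, and both received doxycycline at 19 days of age and were killed at 30 days. There was no group without the transgenes or without doxycycline.

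Cyclooxygenases turn arachidonic acid, released from membranes by phospholipases, into prostaglandin H2, and a terminal synthase in the same or a nearby cell turns that into 1 prostanoid. Ptgs1 is generally constitutive, while Ptgs2 is inducible and is known in kidney for its place in the macula densa, the tubule cells that touch the glomerulus and regulate renin release. Prostaglandin E2 and prostacyclin widen the afferent arteriole, stimulate renin release and modulate mesangial contraction, and the E2 receptors differ in signalling: the product of Ptger4 raises cyclic AMP, that of Ptger3 mainly lowers it and that of Ptger1 raises calcium.

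The female-labelled library held 4909 kept cells with a median of 10672 UMIs, and the male-labelled library held 4442 with a median of 9616. Of the kept cell barcodes, 7 occurred in both libraries. Xist and the Y-linked genes ran against the titles, at 0.682 and 214 CPM (a gene's UMIs scaled to a total of 1000000) in the female-labelled library and at 1593 and 0.0206 CPM in the male-labelled library, so each library is named here by its label only. Cells were clustered without the 8 genes and without other prostanoid genes, and classes were named from marker lists. A class name therefore means cells that are like that type by their markers. Podocyte-like cells numbered 3445 in the female-labelled library and 2889 in the male-labelled library, parietal epithelial-like cells 175 and 116, mesangial-like cells 241 and 175, smooth muscle or renin cell-like cells 44 and 62, glomerular endothelial-like cells 112 and 89, and arterial endothelial-like cells 84 and 83. Thick ascending limb-like cells, which belong to the attached tubule, numbered 60 and 91. A further 4 clusters stayed unnamed and entered no class: 447 and 528 cells led by haemoglobin genes, 248 and 318 led by Pla2g7, 20 and 58 led by immune genes and 23 and 11 led by cell cycle genes. The podocyte gene Nphs1 had UMIs in every class and stood at 28.4 to 442 CPM in the 5 other glomerular classes, against 1506 and 1459 CPM in podocytes. Its part in the levels of the members was not tested.

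The members were spread over the glomerular cells rather than gathered in 1 type. Mesangial cells carried Ptgs1 and the highest Ptger4, and glomerular endothelial cells the highest Ptgs1. Arterial endothelial cells carried the highest Ptgs2 of the glomerular classes, parietal cells Ptgds and Ptgis, and smooth muscle or renin cells Ptgis. In mesangial and glomerular endothelial cells Ptgs2 was low, at no more than 6.77 CPM in either library. Most Ptgis UMIs of the parietal class lay in cells that lost the parietal name when clusters were drawn more finely. Podocytes had almost no cyclooxygenase and carried Ptger4. For the test, UMIs of a class were added up within each library. Each class was compared with the mean of the other 5 glomerular classes by edgeR's quasi-likelihood test, with Benjamini-Hochberg adjustment over 11954 genes. The library was a block, so the p-values rest on how far class differences varied between the 2 mice, not on the general difference between the mice. Of 48 comparisons of a member and a class, 13 were higher and 4 were lower at an adjusted p under 0.05. Podocytes had 2 members higher (Ptgds, Ptger4) and 2 lower (Ptgis, Ptgs1), where 53.6% of all genes were called in either direction. Parietal cells had 3 higher (Ptgds, Ptges, Ptgis) and 1 lower (Ptgs2), where 38.3% of all genes were called. Mesangial cells had 4 higher (Ptger1, Ptger4, Ptgs1, Ptgs2), where 32.6% were called. Smooth muscle or renin cells had 1 higher (Ptgis) and 1 lower (Ptger4) against a background of 17.3%, glomerular endothelial cells 2 higher (Ptgs1, Ptgs2) against 36.8%, and arterial endothelial cells 1 higher (Ptgs2) against 21%. Between 17.3% and 53.6% of all genes were called in these contrasts, so a call alone does not set a member apart.

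**Figure D1:**
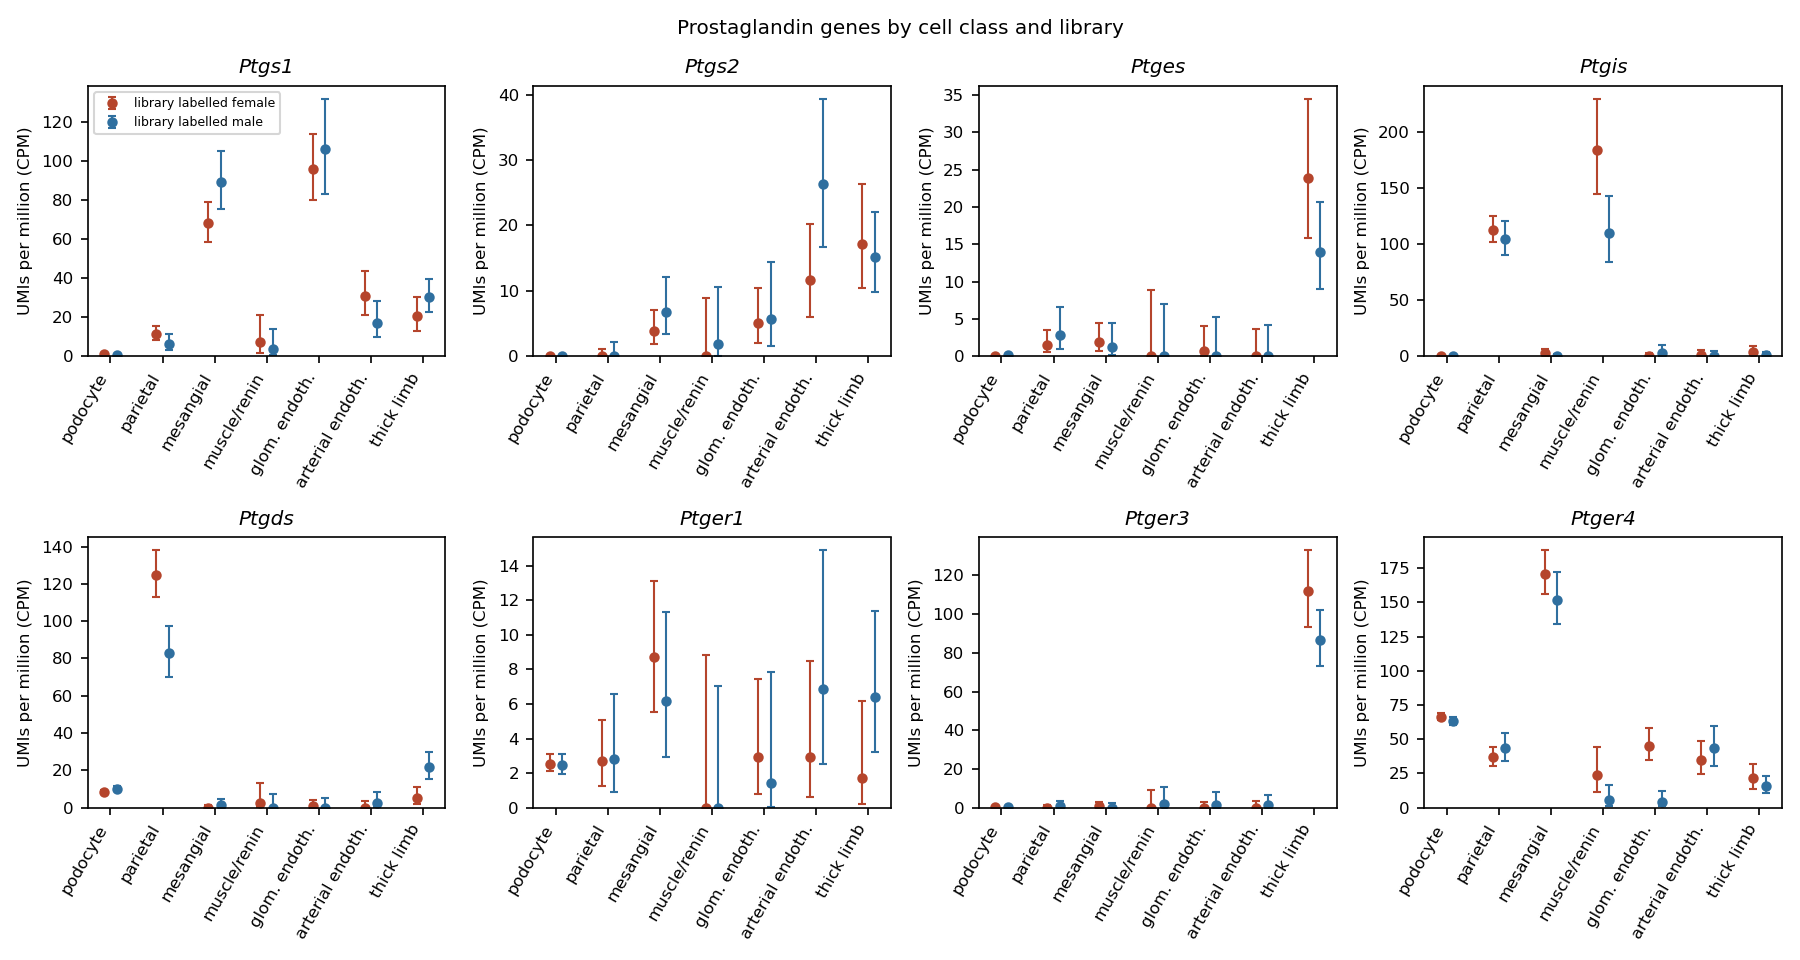
CPM of each member (vertical axes, from 0) in 6 glomerular cell classes and in the thick ascending limb class (horizontal axes), with a point for each library and bars for the exact Poisson 95% interval. Ptgs1 is highest in glomerular endothelial and mesangial cells, Ptgis in parietal and smooth muscle or renin cells, Ptgds in parietal cells, Ptger3 in the thick limb and Ptger4 in mesangial cells.

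Ptgs1, cyclooxygenase-1 (chr2:36230426-36252272, plus strand, GRCm38 as for all genes here), was highest in the cells of the capillary tuft. It stood at 96 CPM (95% Poisson interval 80.3 to 114, from 132 UMIs) and 106 CPM (83.1 to 132, from 75 UMIs) in glomerular endothelial cells of the female-labelled and male-labelled libraries. Mesangial cells had 68.3 and 89.2 CPM, arterial endothelial cells 31 and 17.1 CPM, parietal cells 11.3 and 6.19 CPM, smooth muscle or renin cells 7.18 and 3.81 CPM, and podocytes 1.15 and 0.747 CPM. Both glomerular endothelial values lay above both mesangial values, but by only 1.41-fold and 1.18-fold, and in the male-labelled library the intervals of both classes overlapped. Intervals of this kind cover counting error only. Parietal and smooth muscle or renin cells overlapped in order. On the log2 scale Ptgs1 was 3.31 higher in glomerular endothelial cells than the mean of the other classes (3.07 and 3.78 in the separate libraries, adjusted p = 1.6e-08, edgeR). It was 2.86 higher in mesangial cells (2.48 and 3.49 in the separate libraries, adjusted p = 3.2e-08), and the difference was -4.61 in podocytes (-4.59 and -4.79, adjusted p = 1.1e-06). In parietal and arterial endothelial cells it did not pass (adjusted p = 0.0622 and 0.0781). At least 1 UMI was found in 54.5% and 48.3% of glomerular endothelial cells and 46.9% and 46.9% of mesangial cells, against 1.39% and 0.796% of podocytes, although podocytes were deeper (medians of 11023 and 10074 UMIs, against 7932 and 6452 in glomerular endothelial cells). With every cell thinned to 3000 UMIs the shares were 23.2% and 28.1% in glomerular endothelial cells, 22.8% and 23.4% in mesangial cells and 0.29% and 0.415% in podocytes. An unnamed cluster led by cell cycle genes, 23 and 11 cells, had 141 and 122 CPM of Ptgs1. That cluster held cells of several kinds: a UMI of the mesangial marker Pdgfrb was found in 47.8% and 63.6% of its cells and one of the endothelial marker Pecam1 in 47.8% and 45.5%.

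Ptgs2, cyclooxygenase-2 (chr1:150100031-150108227, plus strand), was a rare transcript, with 57 UMIs in all kept cells of the female-labelled library and 78 in those of the male-labelled library. Among glomerular classes it was highest in arterial endothelial cells, at 11.6 CPM (12 UMIs) in the female-labelled and 26.3 CPM (23 UMIs) in the male-labelled library, which was higher than the mean of the other classes (adjusted p = 4.8e-06, edgeR). Glomerular endothelial cells had 5.09 and 5.64 CPM (adjusted p = 0.00456) and mesangial cells 3.8 and 6.77 CPM (adjusted p = 0.00205), and the values of these 2 classes overlapped. In glomerular endothelial cells that call rested on 7 and 4 UMIs, and without 5 cells of mixed endothelial and mesangial identity in the female-labelled library the level there was 0.947 CPM and the call was lost. The unnamed cluster led by immune genes, 20 and 58 cells, had 31.5 and 24.1 CPM of Ptgs2 (7 and 12 UMIs) and was not among the classes tested. Podocytes had 1 UMI in each library, among 3445 and 2889 cells. Parietal cells had none, which allows up to 0.893 and 1.69 CPM, and were called lower (adjusted p = 0.0135), but set against podocytes alone they were not (adjusted p = 0.711). Where a class is at 0 in both libraries, the mean log level of the other classes is not determined. That touches every comparison of Ptgs2 with the mean of the others, in which podocytes had an adjusted p of 1, and likewise those of Ptges and Ptger1. In a comparison of each class with podocytes, which holds no such mean and was added after the values were seen, Ptgs2 was higher in arterial endothelial (adjusted p = 5.5e-08), glomerular endothelial (adjusted p = 1.3e-05) and mesangial cells (adjusted p = 1.7e-06). In that comparison 21 of 40 tests of a member passed. Mesangial cells had 6 members higher and 1 lower (background of all genes called 52.7%), parietal cells 4 and 1 (47.5%), glomerular endothelial cells 2 and 2 (53.3%), arterial endothelial cells 2 and 1 (41.5%), and smooth muscle or renin cells 1 and 1 (33.5%).

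The start regions of both cyclooxygenase genes and of Ptger4 are shown because the genes lay in different cells and because Ptgs2 is known as an inducible gene. Each sequence runs 5' to 3' on the gene's strand, from 250 bases before to 50 bases after the annotated start, from RefSeq on GRCm38.p6, and 6 of the 8 members had such an entry. Capitals mark matches on either strand to 6 motifs chosen with these sequences in view. The cyclic AMP response half-site CGTCA was in 20.8% of 32851 promoters of the same length. The E-box CACGTG was in 7.15% of them and the C/EBP motif TTGCGCAA in 0.183%. The AP-1 motif TGANTCA was in 7.81%, the TATA box TATAAA in 13.6% and the GC box GGGCGG in 35.7%. Ptgs1 (chr2:36230176-36230475, plus strand) held none of the 6. Ptgs2 (chr1:150099781-150100080, plus strand) held a GC box, the C/EBP motif, and a cyclic AMP response half-site that overlaps an E-box. Ptger4 (chr15:5244138-5244437, minus strand) held 4 GC boxes, of which the first pair overlap. A match describes letters and is no evidence of binding.
Ptgs1: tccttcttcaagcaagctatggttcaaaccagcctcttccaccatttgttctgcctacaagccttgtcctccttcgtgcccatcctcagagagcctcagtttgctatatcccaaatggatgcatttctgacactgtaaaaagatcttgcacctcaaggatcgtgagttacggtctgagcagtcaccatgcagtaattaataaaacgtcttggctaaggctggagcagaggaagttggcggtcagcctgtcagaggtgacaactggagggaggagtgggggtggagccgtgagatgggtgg
Ptgs2: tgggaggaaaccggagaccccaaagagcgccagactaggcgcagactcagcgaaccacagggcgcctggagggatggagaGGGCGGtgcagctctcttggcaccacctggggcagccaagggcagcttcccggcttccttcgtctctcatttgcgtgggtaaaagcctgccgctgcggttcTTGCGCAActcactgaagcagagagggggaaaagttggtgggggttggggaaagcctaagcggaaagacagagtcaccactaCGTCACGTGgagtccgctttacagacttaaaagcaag
Ptger4: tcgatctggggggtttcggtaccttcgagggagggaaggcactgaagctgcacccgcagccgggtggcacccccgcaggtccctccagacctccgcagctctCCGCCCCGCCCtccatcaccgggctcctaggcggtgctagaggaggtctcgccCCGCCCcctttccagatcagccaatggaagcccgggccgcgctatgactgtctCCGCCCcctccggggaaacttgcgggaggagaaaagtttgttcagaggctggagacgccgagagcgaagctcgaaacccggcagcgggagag

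Ptges, the inducible microsomal prostaglandin E synthase (chr2:30889471-30929863, minus strand), was near the floor in glomerular cells. It stood at 1.49 and 2.81 CPM in parietal cells of the female-labelled and male-labelled libraries (5 UMIs in each) and at 1.9 and 1.23 CPM in mesangial cells (5 and 2 UMIs), and podocytes had 3 UMIs in each library. Arterial endothelial and smooth muscle or renin cells had none in either library. Parietal cells were higher than the mean of the other classes (adjusted p = 0.0234, edgeR), a call on 10 UMIs in all, with 2 of the other classes at 0, that was lost when clusters were drawn at a finer resolution. Set against podocytes alone, parietal (adjusted p = 0.0011) and mesangial cells (adjusted p = 0.00316) were higher. Of all Ptges UMIs, 66.7% and 64.9% lay in the thick ascending limb class, at 23.9 and 13.9 CPM, with 17 of the 28 UMIs of the female-labelled library in 1 cell. The other prostaglandin E synthases were present throughout: Ptges3, a cochaperone also described as the cytosolic E synthase, stood at 193 to 276 CPM in every glomerular class, and Ptges2, the second membrane-associated enzyme, at 5.71 to 18.3 CPM.

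Ptgis, prostacyclin synthase (chr2:167191805-167240604, minus strand), was found in 2 glomerular classes. Smooth muscle or renin cells of the female-labelled and male-labelled libraries had 184 CPM (145 to 230, 77 UMIs) and 110 CPM (83.9 to 143, 58 UMIs), and parietal cells had 113 CPM (102 to 125, 380 UMIs) and 105 CPM (90.2 to 121, 186 UMIs). Neither library had more than 3.04 CPM (8 UMIs, 7 of them in 1 cell) in mesangial, glomerular endothelial, arterial endothelial or podocyte-like cells. Both classes were higher than the mean of the others (adjusted p = 3.9e-09 and 3.7e-10, edgeR), and podocytes were lower (adjusted p = 0.00416), although that call was lost after thinning, at a finer clustering and when the 5% of cells scored most like doublets were left out. The parietal class held 75% and 68.1% of all Ptgis UMIs. Of its 380 and 186 UMIs, 316 and 147 lay in cells that lost the parietal name at a finer clustering. Prostacyclin is best known as an endothelial product, and arterial endothelial cells had 1 Ptgis UMI in the female-labelled library and none in the male-labelled library, which allows up to 3.43 CPM.

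The Ptgis level of parietal cells was uneven within the class. At a finer clustering resolution the class split into 101 and 68 cells with more podocyte genes, which lost the parietal name, and 74 and 48 cells with fewer, which kept it. The cells with more podocyte genes had 202 and 170 CPM of Ptgis, against 35.7 and 42.7 CPM in the cells with fewer, and the intervals of the 2 sides did not overlap in either library. In the same cells the summed podocyte markers stood at 14629 and 12658 CPM, against 1908 and 1018 CPM, and the summed parietal markers at 1537 and 1617 CPM, against 5009 and 5086 CPM. Pla2g7, a phospholipase that degrades platelet-activating factor, had 276 and 324 CPM on that side, against 5.58 and 2.19 CPM. Podocytes themselves had 0.276 and 0.342 CPM of Ptgis, far below both sides. Stromal genes moved with Ptgis too: Pdgfrb had 172 and 264 CPM on the side with more podocyte genes, against 48.5 and 95.3 CPM, and Mgp, matrix Gla protein, had 722 and 303 CPM, against 44.1 and 42.7 CPM. The summed mesangial markers stood at 531 and 698 CPM, against 261 and 344 CPM. The part of these other cell types in the Ptgis level was not tested. An unnamed cluster with podocyte markers whose leading genes included Pla2g7 and the parietal marker Dkk3, 248 and 318 cells, had 6.63 and 3.23 CPM. The split was drawn after the values were seen and was not tested.

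**Figure D2:**
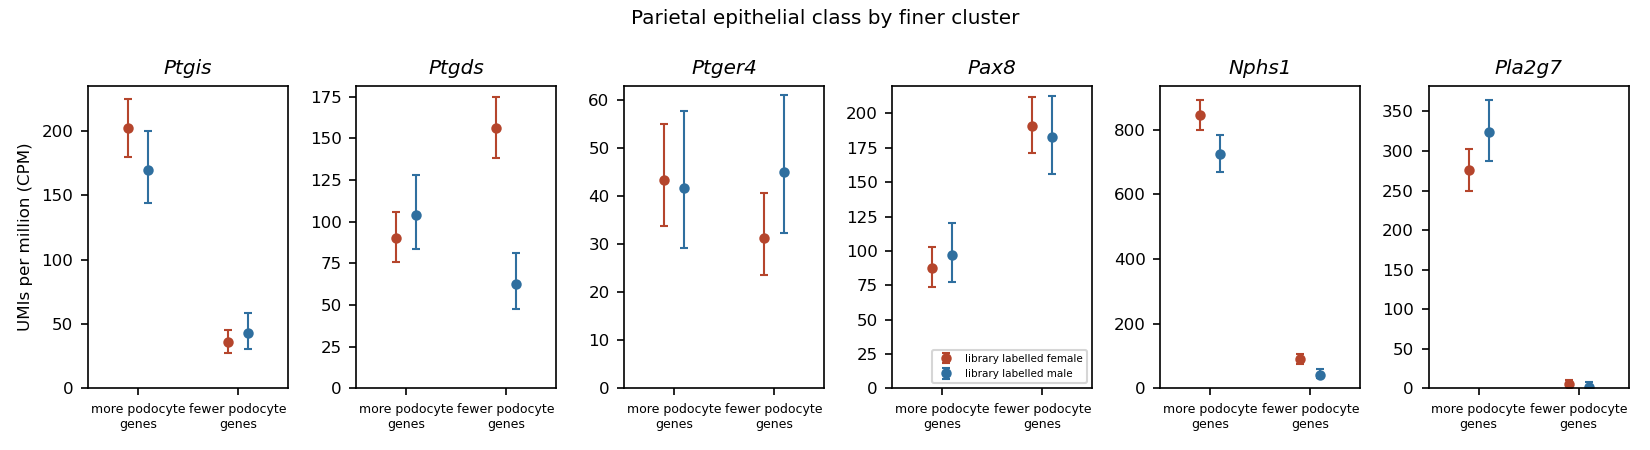
CPM (vertical axes, from 0) of Ptgis, Ptgds, Ptger4, the parietal marker Pax8, the podocyte marker Nphs1 and Pla2g7 in the parietal class, split by a finer clustering into cells with more and with fewer podocyte genes. Points are libraries and bars exact Poisson 95% intervals, and Ptgis is at 202 and 170 CPM on the side with more podocyte genes, against 35.7 and 42.7 CPM.

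Ptgds, the lipocalin-type prostaglandin D synthase (chr2:25466709-25470046, minus strand), was highest in parietal cells. It stood at 125 CPM (113 to 138) and 82.7 CPM (69.9 to 97.2) in parietal cells of the female-labelled and male-labelled libraries, against 8.35 and 10.1 CPM in podocytes. No other glomerular class exceeded 2.39 CPM. Parietal cells and podocytes were both higher than the mean of the others (adjusted p = 5.8e-09 and 0.00437, edgeR), and parietal cells were also higher than podocytes (adjusted p = 4.6e-08). A UMI was found in 44% and 34.5% of parietal cells, against 6.47% and 6.54% of podocytes, and 1 parietal cell alone held 63 of the 420 parietal UMIs in the female-labelled library. Both sides of the parietal split carried it, at 90 and 104 CPM in cells with more podocyte genes and 156 and 62.5 CPM in cells with fewer. The unnamed Pla2g7 cluster stood between podocytes and parietal cells, at 25.3 and 31.8 CPM. Hpgds, the haematopoietic D synthase, reached 7.05 CPM at most in any glomerular class. The receptors for prostaglandin D2 were all but undetected: Ptgdr had no UMI in any of the 6 classes, and Ptgdr2 had 4 in all.

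**Figure D3:**
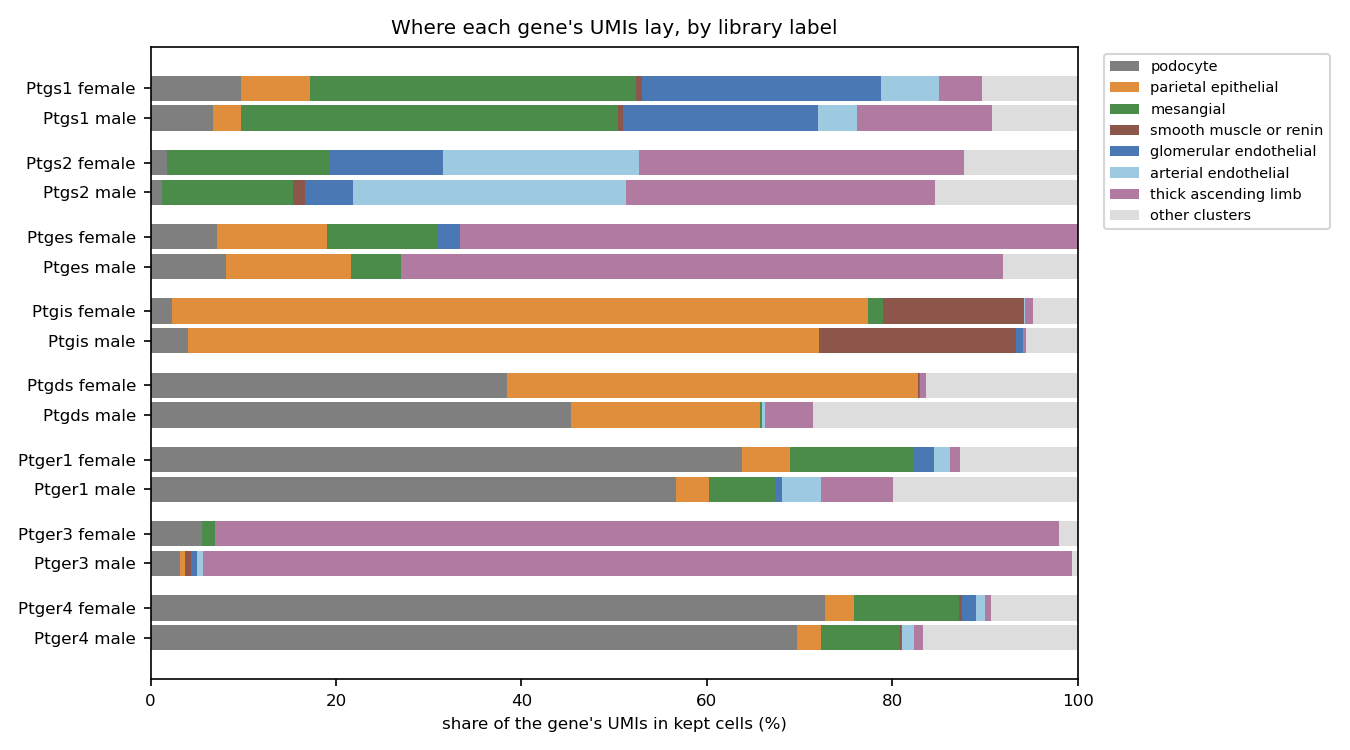
Share of each member's UMIs (horizontal axis, percent) by cell class, with a bar for each library. The parietal class held 75% and 68.1% of Ptgis UMIs, mostly in cells that lost the parietal name at a finer clustering. The thick ascending limb held 91% and 93.7% of Ptger3 UMIs, and podocytes, the most numerous class, 72.7% and 69.7% of Ptger4 UMIs.

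Ptger4, the EP4 receptor (chr15:5206661-5244187, minus strand), had the most UMIs of the 3 receptors and was the member with the most UMIs in podocytes. Mesangial cells of the female-labelled and male-labelled libraries had 171 CPM (156 to 188) and 152 CPM (134 to 172), podocytes 66.4 and 63.1 CPM, parietal cells 36.9 and 43.3 CPM, arterial endothelial cells 34.9 and 43.4 CPM, glomerular endothelial cells 45.1 and 4.23 CPM, and smooth muscle or renin cells 23.9 and 5.71 CPM. The mesangial values lay above the podocyte values by 2.58-fold and 2.41-fold, and the podocyte values lay above those of every other class. The remaining 4 classes overlapped in order. On the log2 scale mesangial cells were 2.24 higher than the mean of the other classes (2.13 and 2.96 in the separate libraries, adjusted p = 7.8e-07, edgeR) and podocytes 0.75 higher (0.49 and 1.44, adjusted p = 0.00678). The difference was -1.84 in smooth muscle or renin cells (-1.28 and -2.72, adjusted p = 0.0418), from 10 and 3 UMIs. The podocyte call was lost with DESeq2, and the smooth muscle call in 5 of the alternatives. A UMI was found in 72.2% and 64% of mesangial cells and 49.1% and 44.8% of podocytes, and after thinning in 36.5% and 33.7% of mesangial cells and 16% and 17.4% of podocytes.

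In glomerular endothelial cells Ptger4 depended on very few cells. Of 62 UMIs in the female-labelled library, 59 lay in 4 of the 5 cells that also held UMIs of the mesangial marker Pdgfrb. Those 5 cells had a median of 45907 UMIs, against 7804 in the 107 cells without Pdgfrb. The 107 cells had 3 UMIs, 2.84 CPM, which lies beside the 4.23 CPM of the male-labelled library. Without such mixed cells glomerular endothelial cells were called lower than the mean of the other classes. Ptger4 overlaps Ttc33 on the opposite strand over 11676 bases, and whether counting used strand is not stated in the labels or notes. Ttc33 stood at 46.7 and 53.5 CPM in mesangial cells and 47.6 and 42.6 CPM in podocytes, so it did not share the mesangial excess of Ptger4.

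Ptger1, the EP1 receptor (chr8:83666678-83672753, plus strand), was low everywhere. Mesangial cells of the female-labelled and male-labelled libraries had 8.73 and 6.15 CPM (23 and 10 UMIs), arterial endothelial cells 2.91 and 6.86 CPM, parietal cells 2.68 and 2.81 CPM, podocytes 2.55 and 2.49 CPM and glomerular endothelial cells 2.91 and 1.41 CPM. Mesangial cells were higher than the mean of the others (adjusted p = 0.00664, edgeR) and than podocytes alone (adjusted p = 0.0063), while their values overlapped those of arterial endothelial cells. Smooth muscle or renin cells had no UMI in either library, which allows up to 7.18 and 5.71 CPM and so does not set them below the other classes. Counts of Ptger1 are uncertain if counting did not use strand.

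Ptger3, the EP3 receptor (chr3:157566892-157645888, plus strand), lay almost wholly outside the glomerular classes. None of them exceeded 1.9 CPM, podocytes had 8 and 5 UMIs in all, and none of the 6 classes passed the test. The thick ascending limb class had 112 CPM (93.4 to 133) and 86.6 CPM (73.2 to 102) and held 91% and 93.7% of all Ptger3 UMIs. The limb was not among the glomerular comparisons and was not tested.

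The thick ascending limb class separated further by Nos1, neuronal nitric oxide synthase, a marker of the macula densa. Of 60 cells in the female-labelled library, 7 had a Nos1 UMI, and these held all 20 Ptgs2 UMIs of the class (11 of them in 1 cell), 140 CPM (85.6 to 216), against 0 UMIs in the 53 cells without Nos1. Of 91 cells in the male-labelled library, 12 had a Nos1 UMI and held 22 of 26 Ptgs2 UMIs, 108 CPM (67.8 to 164), against 2.64 CPM in the 79 without. The intervals did not overlap in either library, and the cells with Nos1 were the shallower, with medians of 8520 and 14807 UMIs, against 16275 and 17483. Ptgs2 was thus far higher in a few Nos1-positive cells than in any glomerular class. Ptger3 was found on both sides, at 168 and 147 CPM with Nos1 and 104 and 78.4 CPM without, and the intervals of both sides were apart in the male-labelled library only. Ptges stood at 21 and 44.2 CPM with Nos1 and 24.3 and 9.88 CPM without, and its intervals overlapped in the female-labelled library only. Ptgs1 had 0 and 14.7 CPM with Nos1 and 23.3 and 32.3 CPM without. Part of the Ptgs1 lay in cells that at a finer clustering took the name of the distal convoluted tubule, 7 and 21 cells with 28.6 and 68 CPM, against 19.4 and 16 CPM in the rest. The receptor for prostaglandin F2alpha, Ptgfr, ran the other way from Ptgs2, at 0 and 24.6 CPM with Nos1 and 120 and 144 CPM without. The split by Nos1 was chosen after the values were seen.

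**Figure D4:**
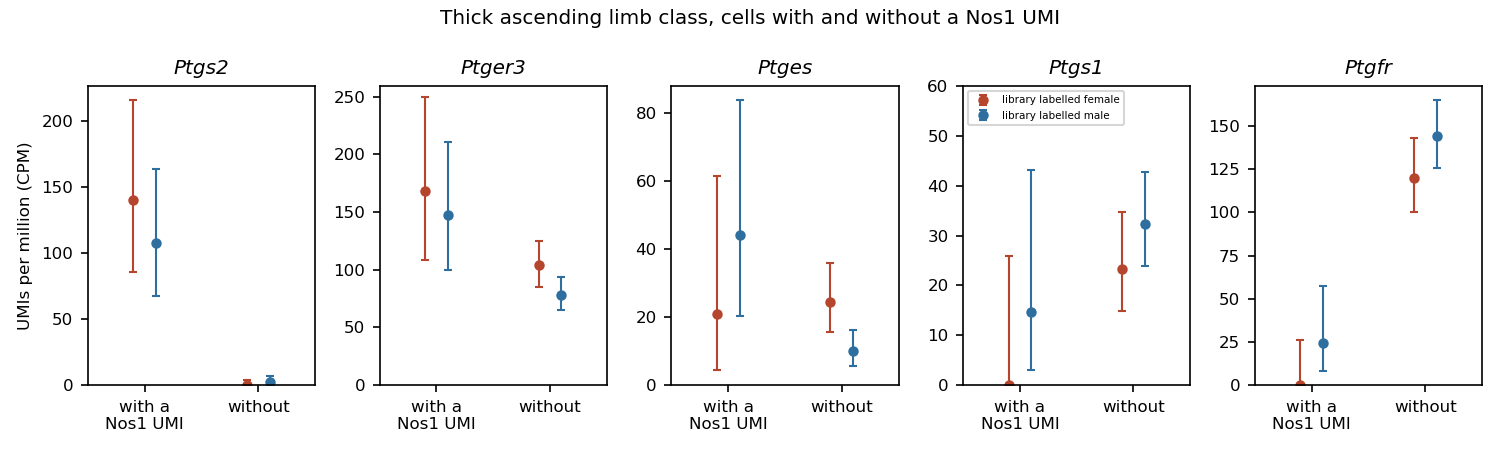
CPM (vertical axes, from 0) of Ptgs2, Ptger3, Ptges, Ptgs1 and Ptgfr in thick ascending limb cells with a Nos1 UMI (7 and 12 cells) and without one (53 and 79 cells). Points are libraries and bars exact Poisson 95% intervals, and Ptgs2 is at 140 and 108 CPM with Nos1, against 0 and 2.64 CPM without.

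The members differed between the 2 libraries in some classes and not in others. With 1 mouse each no test was possible, and the mouse, its sex and its library cannot be told apart. A ratio here is the female-labelled over the male-labelled CPM of a class, given where both libraries together had at least 30 UMIs, with an exact conditional binomial 95% interval. Of 23 ratios, 8 had an interval that left out 1. The share of all genes with such an interval was not computed, so this count does not set the members apart. By size alone, 9 of the 23 passed 1.5-fold in either direction, from 6 of the 8 members: 1 of 4 ratios in podocytes, 2 of 4 in parietal cells, 0 of 3 in mesangial cells, 1 of 1 in smooth muscle or renin cells, 1 of 2 in glomerular endothelial cells, 2 of 3 in arterial endothelial cells and 2 of 6 in the thick ascending limb. The share of all genes whose ratio passed 1.5-fold in either direction was 5.85% in podocytes, 9.91% in parietal cells, 14% in mesangial cells, 18.6% in smooth muscle or renin cells, 17.8% in glomerular endothelial cells, 13.4% in arterial endothelial cells and 14.3% in the thick ascending limb. Of the 9, the intervals of Ptgs1 in podocytes (1.54, 0.929 to 2.62), parietal cells (1.83, 0.915 to 3.96) and arterial endothelial cells (1.81, 0.952 to 3.6) and of Ptges in the thick ascending limb (1.71, 0.957 to 3.09) held 1. Ptger4 in podocytes had a ratio of 1.05 (0.993 to 1.11), from 2884 and 2029 UMIs. Ptgds had 1.51 (1.25 to 1.84) in parietal cells and 0.824 (0.707 to 0.959) in podocytes, and so ran in opposite directions in the 2 classes, although 1 parietal cell held 63 UMIs. Within the parietal class only the cells with fewer podocyte genes were higher in the female-labelled library, at 156 and 62.5 CPM. The cells with more podocyte genes had 90 and 104 CPM, the direction of podocytes. Ptgis had 1.67 (1.17 to 2.39) in smooth muscle or renin cells and 1.08 (0.905 to 1.3) in parietal cells. Ptgs1 had 0.766 (0.612 to 0.96) in mesangial cells and 0.909 (0.679 to 1.22) in glomerular endothelial cells. Ptgs2 had 0.443 (0.201 to 0.927) in arterial endothelial cells, where 8 of the 23 UMIs of the male-labelled library came from 1 cell. Ptgds had 0.238 (0.0821 to 0.569) and Ptger3 1.29 (1.01 to 1.64) in the thick ascending limb. The ratio of 10.7 (3.49 to 53.1) for Ptger4 in glomerular endothelial cells rested on the 5 mixed cells described above.

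Dissociation of tissue induces immediate early genes, so podocytes of each library were ranked by the summed share of 10 early genes (Fos, Fosb, Jun, Junb, Egr1, Atf3, Ier2, Nr4a1, Dusp1, Zfp36) and split into tertiles. These genes took 5169, 18882 and 42699 CPM in the low, middle and high tertile of the female-labelled library and 3526, 11383 and 31133 CPM in those of the male-labelled library. Ptgs2 had 1 UMI in the podocytes of each library, too few to show any trend over the tertiles. Ptger4 was higher in each successive tertile, with 53.9, 62.1 and 82.3 CPM in the female-labelled library and 54.8, 58.2 and 76.2 CPM in the male-labelled library. The high tertile stood 1.53-fold (1.39 to 1.67) and 1.39-fold (1.25 to 1.55) above the low one, and after thinning a UMI was found in 12.3%, 15.8% and 19.9% of cells in the female-labelled library and 15.4%, 17.8% and 19% in the male-labelled library. Ptgds went the other way in CPM, with 10.1, 7.63 and 7.45 CPM in the female-labelled library, 11.6, 10.1 and 8.76 CPM in the male-labelled library and high over low ratios of 0.738 (0.569 to 0.954) and 0.755 (0.572 to 0.994). Its share of cells with a UMI after thinning did not fall steadily, at 2.7%, 1.74% and 2.35% in the female-labelled library and 2.8%, 2.91% and 2.39% in the male-labelled library. Median depth was 10384, 10874 and 11643 UMIs over the tertiles of the female-labelled library and 9982, 9697 and 10504 in the male-labelled library. The median share of mitochondrial UMIs was 4.33%, 3.94% and 3.84% over the tertiles of the female-labelled library and 4.44%, 4.06% and 3.61% over those of the male-labelled library. The part of depth and of mitochondrial share in these differences was not tested.

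**Figure D5:**
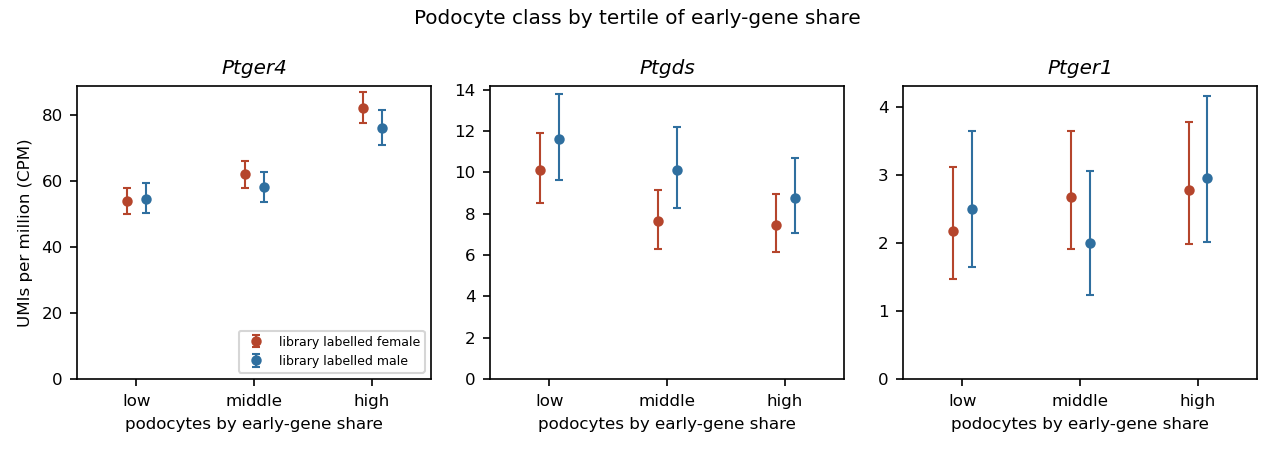
CPM (vertical axes, from 0) of Ptger4, Ptgds and Ptger1 in podocyte-like cells by tertile of the summed early-gene share (horizontal axes, low to high). Points are libraries and bars exact Poisson 95% intervals, and Ptger4 is at 82.3 and 76.2 CPM in the high tertile.

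Upstream of the cyclooxygenases, Pla2g4a, the cytosolic phospholipase A2 that frees arachidonic acid, followed the classes with Ptgs1 and Ptgs2. It stood at 193 and 197 CPM in mesangial cells, 89.2 and 117 CPM in arterial endothelial cells and 31.3 and 42.3 CPM in glomerular endothelial cells, against 0.138 and 0.218 CPM in podocytes, and was higher in each of those 3 classes (adjusted p = 3.3e-12, 8.5e-10 and 3.4e-05, edgeR) and lower in podocytes (adjusted p = 2.2e-09). Mgll, the monoacylglycerol lipase that is another source of arachidonic acid, was highest in glomerular endothelial cells at 342 and 375 CPM (adjusted p = 6.7e-11) and lowest in podocytes at 30.3 and 26.9 CPM (adjusted p = 5.2e-09). Of the other receptors, Tbxa2r, for thromboxane A2, stood at 178 and 147 CPM in glomerular endothelial cells (adjusted p = 1.7e-10) and 34.5 and 29 CPM in podocytes. Ptgir, for prostacyclin, stood at 21.5 and 32.4 CPM in smooth muscle or renin cells (9 and 17 UMIs, adjusted p = 1.3e-04) and 5.32 and 11.7 CPM in mesangial cells (adjusted p = 0.00643). The smooth muscle or renin class as a whole thus held both the prostacyclin synthase and its receptor, while mesangial cells held the receptor with 3.04 and 0 CPM of the synthase. Within the smooth muscle or renin class, Ptgir had 17.9 and 20.6 CPM in cells with a Ptgis UMI. In cells without one it had 28.8 and 42.6 CPM, and the intervals of both sides overlapped. Of the 27 and 26 cells with a Ptgis UMI, 4 in each library had a Ptgir UMI. Ptger2, the EP2 receptor, had 8.73 and 6.15 CPM in mesangial cells and at most 1 UMI in each other glomerular class. Ptgfr had 6.03 and 8.15 CPM in podocytes (adjusted p = 2.1e-06) and 4.76 and 4.5 CPM in parietal cells (adjusted p = 0.00182).

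Among terminal enzymes and transporters, Akr1b7, an aldo-keto reductase with reported prostaglandin F synthase activity that is also a renin-cell marker, stood at 1482 and 1845 CPM in smooth muscle or renin cells. As it is 1 of the markers that named the class, this is no finding. Tbxas1, thromboxane synthase, did not exceed 5.71 CPM in any glomerular class and stood at 23.9 and 32.5 CPM in the thick ascending limb. Akr1b3, the mouse prostaglandin F synthase of the aldose reductase family, was broad at 83.4 to 204 CPM and higher in podocytes (204 and 204 CPM, adjusted p = 1.8e-06). Of the carbonyl reductases, which can convert prostaglandin E2 to F2alpha, Cbr2 and Cbr3 were set apart by class. Cbr2 had 13.4 and 20.3 CPM in parietal cells (adjusted p = 2.0e-05) and Cbr3 had 21.3 and 31.4 CPM in mesangial cells (adjusted p = 6.5e-06). Cbr1 was broader: it had 67.9 and 70.9 CPM in parietal cells, only 0.58 higher on the log2 scale (adjusted p = 0.00192). Its difference was -0.65 in arterial endothelial cells (adjusted p = 0.0257, edgeR) and between -0.15 and 0.34 in the remaining classes, where it did not pass. Slco2a1, the prostaglandin uptake transporter, was broad, at 495 and 440 CPM in glomerular endothelial cells (adjusted p = 5.8e-07), 324 and 435 CPM in mesangial cells (adjusted p = 3.6e-05) and 184 and 183 CPM in podocytes, and lowest in parietal cells at 53 and 43.9 CPM (adjusted p = 3.1e-09). Abcc4, an exporter of prostaglandins, was higher in glomerular endothelial cells at 49.5 and 55 CPM (adjusted p = 4.5e-09) and in parietal cells at 29.8 and 26.5 CPM (adjusted p = 7.7e-08). It was also higher in arterial endothelial cells (adjusted p = 5.9e-05, edgeR). Slco3a1, another prostaglandin transporter, was highest in mesangial cells at 192 and 268 CPM (adjusted p = 4.0e-11). Ptgr2 and Zadh2, reductases that break down prostaglandins, were highest in podocytes, at 41.1 and 43.1 CPM (adjusted p = 3.7e-04) and 37.3 and 36.4 CPM (adjusted p = 0.00224). Of enzymes that take arachidonic acid to other products, Ltc4s, leukotriene C4 synthase, stood at 105 and 95.8 CPM in glomerular endothelial cells (adjusted p = 9.9e-10). Alox12, the platelet-type 12-lipoxygenase, stood at 34.9 and 61.7 CPM in arterial endothelial cells (adjusted p = 8.1e-08), and Ephx2, soluble epoxide hydrolase, at 39.9 and 26.5 CPM in parietal cells (adjusted p = 7.7e-07). None of these was called in 1 class only. Ltc4s was also higher in arterial endothelial cells (adjusted p = 0.0172, edgeR), Alox12 in glomerular endothelial cells (adjusted p = 8.2e-07) and Ephx2 in podocytes (adjusted p = 8.2e-04). Over all 59 other prostanoid and arachidonate genes in the feature list, 32 could be tested. Of these, podocytes had 7 higher and 9 lower (50% called, against 53.6% of all genes), parietal cells 10 and 6 (50%, against 38.3%), mesangial cells 8 and 4 (37.5%, against 32.6%), smooth muscle or renin cells 5 and 2 (21.9%, against 17.3%), glomerular endothelial cells 10 and 4 (43.8%, against 36.8%), and arterial endothelial cells 8 and 2 (31.2%, against 21%). Their median log2 difference was -0.01 in podocytes (-0.01 over all genes), 0.23 in parietal cells (0.03), 0.14 in mesangial cells (0.04), 0.09 in smooth muscle or renin cells (-0.01), -0.06 in glomerular endothelial cells (-0.01) and 0.21 in arterial endothelial cells (0).

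The genes with the most similar pattern were sought among 5267 genes, by the Pearson correlation of log2(CPM + 10) over 12 values, the 6 glomerular classes of each library. Classes of 1 library share the mouse and the preparation, and so these are descriptions. For Ptgs1 they were H2-T22 (0.978), Tagln2 (0.977) and Slc29a1 (0.97), for Ptgis Dgkg (0.986), Cdh6 (0.985) and Lox (0.97), for Ptgds Veph1 (0.988), Proser2 (0.988) and Pax8 (0.985), and for Ptger4 Nub1 (0.952), Kif3b (0.942) and Prkab2 (0.91). Pax8, a transcription factor of parietal and tubular epithelium, was 1 of the markers used to name parietal cells.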

How the data were processed

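Droplet 3' libraries of total glomerular cells from 2 mice were analysed from the deposited UMI counts, which are raw whole numbers per gene and barcode without normalization. The submitters' processing notes name Cell Ranger 6.1.2, STAR 2.7.5a and mm10, with no role given. The annotation and the use of strand in counting are not stated in what was read here. All further steps were computed here.

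Barcodes with under 500 genes or over 20% mitochondrial UMIs were left out, which kept 9351 of 10207. Their total UMIs were 67648465 in the female-labelled library and 57841860 in the male-labelled library before filtering. Scrublet called 2 and 1 doublets and so did not work. No cells were removed as doublets. Counts were scaled to 10000 UMIs, and 2000 variable genes without the 8 members and without other prostanoid genes gave 30 principal components, 20 neighbours and 18 Leiden clusters at resolution 1 (scanpy 1.11.5). Clusters were named from marker lists, with at least 3 detected markers, and by a naming rule set after the clusters had been seen. The 8 genes, the lists and the tests were chosen with earlier results of these data known.

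UMIs were summed per class and library, and 11954 genes were tested with edgeR 4.0.16 (TMM, filterByExpr, quasi-likelihood test, library as a block, Benjamini-Hochberg adjustment). The block stands for the mouse, since all classes of a library come from 1 animal. The p-values rest on how far the differences between classes varied between the 2 libraries, once the block had taken out their general difference. On simulated counts with 4-fold changes the same fit recovered 95.5% of 200 changed genes in parietal cells and 92.5% in smooth muscle or renin cells. With 2-fold changes it recovered 71.4% of 199 and 51.5% of 200. False calls in these classes numbered 15 and 9 at 4-fold and 5 and 5 at 2-fold, with at most 28 in any class. The recovered shares were not split by level, so they do not show recovery for members with few UMIs. Levels are CPM of summed UMIs with exact Poisson 95% intervals, shares of cells have exact Clopper-Pearson intervals, and a count of 0 allows up to 3 UMIs. These cover counting error only. To compare shares across depths, cells were thinned to 3000 UMIs.

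There were 59 other prostanoid and arachidonate genes found. Those named have at least 20 CPM and 20 UMIs in 1 glomerular class in both libraries, or are receptors or terminal synthases. Not every listed synthase is named. Genes of like pattern were the 3 best among those with at least 50 CPM in 1 class. Alternatives were DESeq2 1.42.0, no TMM, no filter, no block, mitochondrial limits of 10% and 50%, resolutions of 0.5 and 2, removal of the 5% most doublet-like cells and thinned cells. Added after the data were seen were contrasts with podocytes, removal of mixed cells, names by marker score alone, and all splits of a class.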

Additional observations from a re-analysis of the deposited data

How the results depend on the processing

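Of 48 tests of a member in a class 17 passed. With a mitochondrial limit of 10%, which left no parietal class, 11 of 25 passed, and with cells thinned to 3000 UMIs 10 of 30. In the other alternatives between 14 and 24 passed, the most with no filter on low counts. Calls lost in at least 1 alternative were Ptger4 in smooth muscle or renin cells and in podocytes, Ptgis in podocytes, Ptgs2 in glomerular endothelial and parietal cells, and Ptges in parietal cells. All calls that could be compared kept their direction in every alternative. Without the library block all 17 calls remained and 1 was added, Ptges in mesangial cells. The number of library ratios whose interval left out 1 was 8 of 23. It was 5 of 13 at the 10% limit and 2 of 23 after thinning, and the share of all genes was not computed. The log2 ratio of Ptger4 in glomerular endothelial cells turned to -0.57 without the mixed cells. The fold of Ptger4 between early-gene tertiles of podocytes was 1.46 over both libraries and 1.58 at the 10% limit. With both libraries pooled, 14 pairs of a member and a class lay at least 1.5-fold above the other classes. That number was 13 without the female-labelled library and 13 without the male-labelled library. The share of all genes at that fold was not computed, so the count does not set the members apart. The highest class of a member changed for 2 members at the 10% limit and for 2 at resolution 0.5, which has no arterial endothelial class. The smallest classes and the lowest genes limit all of this: Ptgs2, Ptges, Ptger1 and Ptger3 rest on 23 UMIs or fewer in every glomerular class except Ptger1 in podocytes.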
